A study of Mus musculus with 6 samples.

Results

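The renin-angiotensin and endothelin systems were followed through 9 genes in mouse heart at day 4: Agt, Ace, Agtr1a, Agtr2 and Agtrap of the angiotensin arm and Edn1, Ece1, Ednra and Ednrb of the endothelin arm. They were picked by name from the 54532 genes of the deposited table, and each matched 1 row. RNA came from 3 control hearts, whose mothers received intraperitoneal citric acid while pregnant, and 3 STZ hearts, whose mothers received intraperitoneal STZ (streptozotocin, which kills pancreatic beta cells and raises blood glucose). All 6 were labelled wild-type ICR, an outbred stock, and tissue was given as heart, with no chamber named. The series uses STZ in pregnant mice as its model of gestational diabetes and asks how this affects the hearts of offspring. Age was read from the sample names, and the day from which it is counted is not given. The labels do not say whether the hearts came from separate litters, so p-values measure the spread between these 6 samples.

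Both systems make a small peptide that constricts vessels and acts on heart muscle and fibroblasts. Angiotensinogen (Agt) is cut by renin to angiotensin I, which the converting enzyme Ace trims to angiotensin II, and this acts mainly through the type 1 receptor (Agtr1a and Agtr1b in rodents), while the type 2 receptor Agtr2 is known chiefly from fetal tissue. Agtrap binds the type 1 receptor and promotes its internalisation. Preproendothelin (Edn1) is cut by furin-like enzymes to a precursor from which Ece1 releases endothelin-1, made mostly by endothelium. Its receptors are Ednra, of smooth muscle and heart muscle, and Ednrb, of endothelium and other cells.

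The values are FPKM (reads per length of gene and per depth of library, on a scale the authors set for each library). The whole reads behind them came to 16707268 in the shallowest library and 18082599 in the deepest. Set against those reads, the authors' scale was 1.21 in control 2 and 0.985 to 1.03 elsewhere. Reads are divided by this scale, so levels in control 2 are lower in FPKM than its reads alone would give. Control 2 stood apart from the other libraries by its marker genes. All 9 atrial markers were highest there, with a summed level of 6515 FPKM against 128 to 223 FPKM in the other 5 libraries. All 5 brown fat markers were too, at 310 FPKM against 18.4 to 23.4 FPKM, with Ucp1, the uncoupling protein of brown fat, at 213 FPKM there and at 0 elsewhere. The T cell kinase gene Lck was at 23.3 FPKM there against 0.018 to 0.59 FPKM and the neural and Schwann cell markers summed to 41.9 FPKM against 1.86 to 3.13 FPKM. Fibroblast markers summed to 1814 FPKM there against 840 to 1074 FPKM. Erythroid markers summed to 14548 FPKM there against 2229 to 4927 FPKM, and endocardial markers to 84.9 FPKM against 24.1 to 35.1 FPKM. For macrophage markers the sums were 110 FPKM against 44.6 to 56.7 FPKM, and for epicardial markers 105 FPKM against 56.7 to 80.8 FPKM. Mast cell markers were at 26.4 FPKM in sum against 8.21 to 20.8 FPKM. All 10 cardiomyocyte markers were lowest in control 2, at 8762 FPKM in sum against 16975 to 20231 FPKM, so heart muscle RNA was abundant in every library. Liver and kidney markers were near 0 in every library, at most 1.49 FPKM in sum. Control 3 had Xist at 70.6 FPKM, against 0.054 FPKM or less in the others, and no reads of the 4 Y-linked genes checked. Results are therefore also given without control 2.

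**Figure D1:**
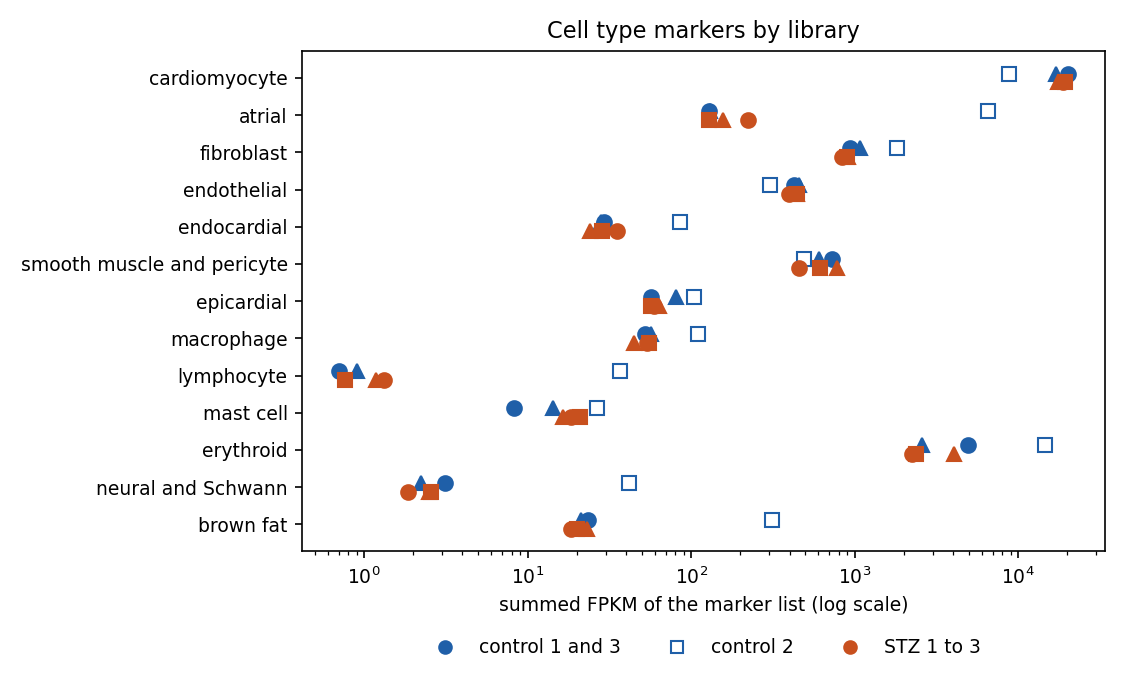
Summed FPKM of 13 cell type marker lists (rows) on a log axis, 1 point per library (circle, square and triangle for replicates 1, 2 and 3; blue for control, orange for STZ, open square for control 2). Control 2 lies right of the other 5 libraries for atrial, brown fat, lymphocyte, neural, fibroblast, erythroid, endocardial, macrophage, epicardial and mast cell lists. It lies to the left for endothelial genes and for cardiomyocyte genes (cardiomyocyte sum 8762 FPKM against 16975 to 20231 FPKM).

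None of the 9 genes passed the test between STZ and control hearts. The test was limma on log2(FPKM + 1) over the 12431 genes that reached 1 FPKM in at least 3 libraries, with a Benjamini-Hochberg (BH) adjusted p under 0.05 as the threshold. It covered 8 of the 9 genes, since Agtr2 was below that limit. Over all genes tested, 3 passed, or 0.0241%. Without control 2 the members' count was again 0 of 8, against 0.0322% of all genes tested. All 3 STZ values lay below all 3 control values at 2 of the 9 genes, Agtrap and Agtr2, while the groups of the other 7 overlapped. Of the genes tested, 8.54% had groups that did not overlap, 3.62% with STZ lower and 4.92% with STZ higher. Among all genes above 0 in any library, which include Agtr2, the share was 7.13%, with STZ lower in 3.72%. The median log2 fold change (STZ over control) of the 8 tested genes was 0.038, with 5 positive and 3 negative, against a median of 0.031 and 57.7% positive over all genes tested. Because the samples are bulk tissue, fewer cells of a type and less RNA per cell cannot be told apart.

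**Figure D2:**
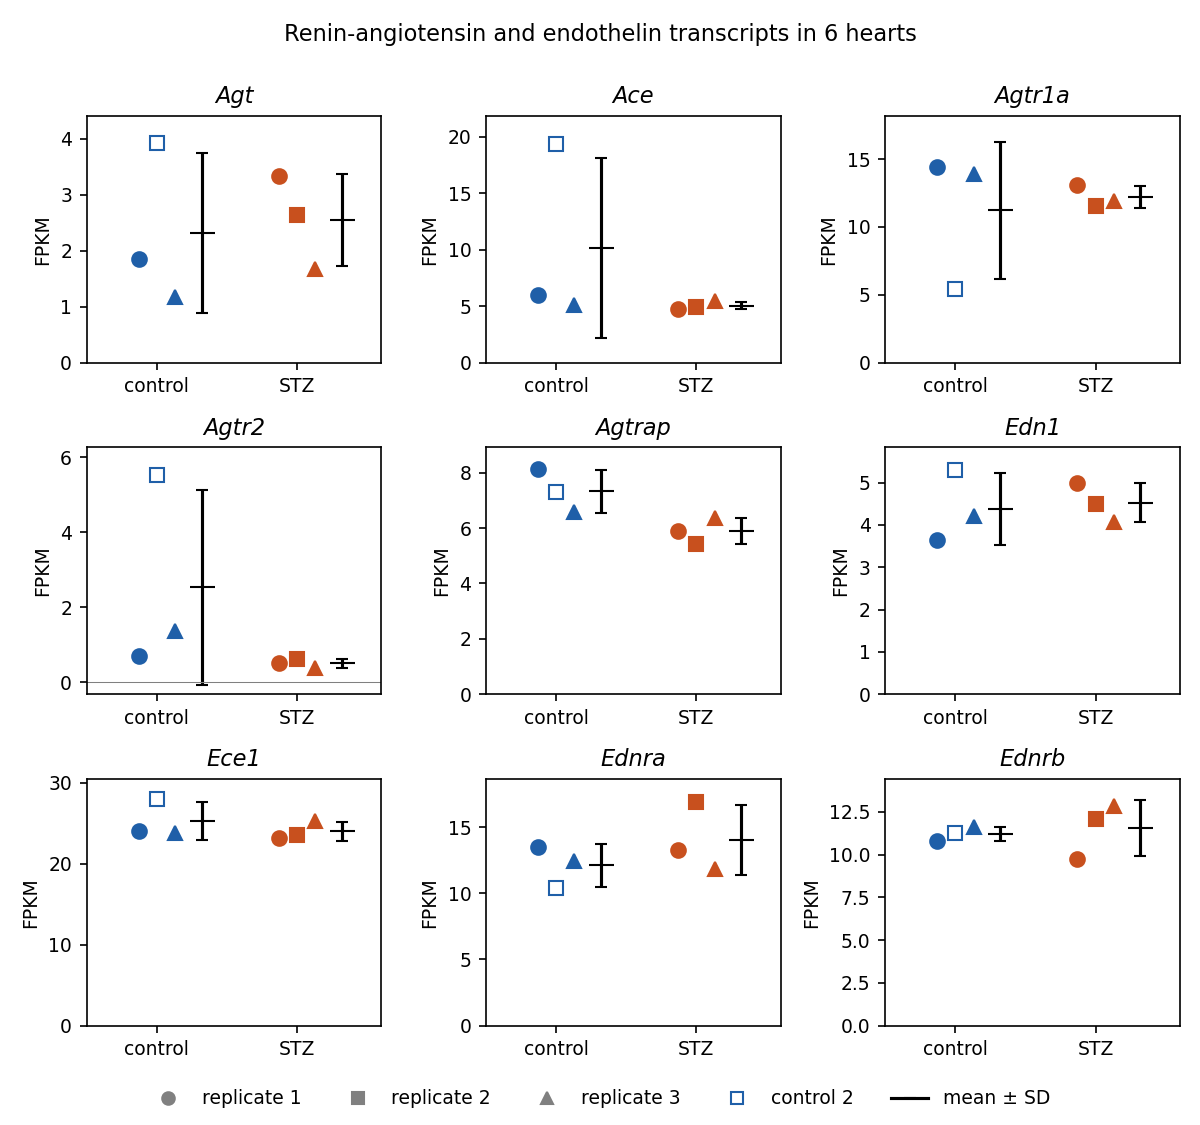
FPKM of each of the 9 genes in the 3 control (blue) and 3 STZ (orange) hearts, 1 point per library (circle, square and triangle for replicates 1, 2 and 3, open square for control 2), with the group mean and SD in black. The groups are separate for Agtrap and Agtr2, and control 2 lies far from controls 1 and 3 for Ace (19.3 FPKM), Agtr2 (5.51 FPKM) and Agtr1a (5.42 FPKM).

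Agtrap, the receptor-associated protein, had the lowest p of the 8 tested genes. Control hearts 1 to 3 were at 8.12, 7.30 and 6.58 FPKM and STZ hearts 1 to 3 at 5.89, 5.44 and 6.35 FPKM. Every STZ heart was below every control heart, and the highest STZ value lay 0.227 FPKM under the lowest control value. The group means were 7.33 ± 0.771 and 5.89 ± 0.457 FPKM (SD, n = 3 each), so the STZ mean was 80.4% of the control mean. The log2 fold change was -0.27 (SE 0.112, 95% interval -0.54 to -0.0056), with an unadjusted limma p of 0.0465 and a BH-adjusted p of 0.922. An unadjusted p under 0.05 was found at 2.59% of all genes tested (1.42% with STZ lower), and Agtrap was the 1 such gene among the 8. The exact two-sided permutation test gave p = 0.1, the smallest that 3 against 3 samples allow. On the authors' scale control 2 was near the middle of the control group, though it held the most Agtrap reads (661, against 579 and 488). Scaled by recovered reads, the Agtrap log2 fold change with all libraries was -0.33. On the authors' scale and without control 2, it was again -0.27 (limma, unadjusted p = 0.0521, BH-adjusted p = 0.9999). None of the 8 genes then had an unadjusted p under 0.05, against 3.93% of all genes tested (1.87% with STZ lower). Leaving out each library in turn gave -0.34 to -0.20. Agtrap (GRCm38 chromosome 4, 148077061 to 148088031, minus strand) overlaps no other gene in GENCODE M21, and 387 to 661 reads per library lay behind its values. The unadjusted p was 0.0868 with the replicate number as a block, and 0.0521 to 0.159 without any 1 library other than control 3 (0.0315). The summed fibroblast markers moved the same way, at 939, 1814 and 1074 FPKM in controls 1 to 3 and 840, 898 and 909 FPKM in STZ 1 to 3, with all 10 markers lower in STZ hearts on average. Their part in the Agtrap result was not tested.

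Agtr2, the type 2 receptor gene, was the least abundant of the 9. It stood at 0.696, 5.51 and 1.37 FPKM in control hearts 1 to 3 and at 0.507, 0.626 and 0.389 FPKM in STZ hearts 1 to 3. Control 2 was thus far above every other library, and the remaining 5 lay between 0.389 and 1.37 FPKM. The means were 2.53 ± 2.61 FPKM in controls against 0.507 ± 0.119 FPKM in STZ hearts. The difference of the log2(FPKM + 1) means was -0.98 with all libraries and -0.42 without control 2. The exact two-sided permutation test gave p = 0.1, and a limma fit with no filter on low values gave a BH-adjusted p of 0.868. Depth limits this gene: STZ hearts held 24 to 35 Agtr2 reads and control 1 held 39. The exact Poisson 95% interval, which covers counting error only, was 0.495 to 0.952 FPKM in control 1 and 0.436 to 0.871 FPKM in STZ 2, so these neighbouring libraries were not separable at this depth. Control 3, the second highest at 80 reads, had an interval of 1.09 to 1.71 FPKM, above the intervals of all 3 STZ hearts. Agtr2 lies on chromosome X (21484544 to 21489164, plus strand), and control 3 was also the library with Xist at 70.6 FPKM. The part of sex in this difference was not tested.

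Ace, the angiotensin-converting enzyme, was at 6.02, 19.3 and 5.10 FPKM in controls 1 to 3 and at 4.77, 4.96 and 5.43 FPKM in STZ 1 to 3. The groups overlapped, because STZ 3 lay above control 3, and control 2 was 3.48 times the mean of the other control hearts. The means were 10.2 ± 7.98 and 5.06 ± 0.340 FPKM, and the log2 fold change was -0.66 (SE 0.430) with a BH-adjusted limma p of 0.922. It moved to -0.11 (95% interval -0.36 to 0.14) without control 2. Ace and Agtr2 were the 2 genes of the 9 raised over 3-fold in control 2 relative to controls 1 and 3, Agtr2 by 5.33 times. This was the library with the raised atrial, brown fat, lymphocyte, Schwann cell, fibroblast, erythroid, endocardial, macrophage, epicardial and mast cell markers given above. The part of those cells in its Ace and Agtr2 values was not tested. The antisense gene Gm11651 covers 17750 bases of Ace and was listed at 0 in all 6 libraries.

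The RefSeq sequence before the start sites of these 3 genes (GRCm38.p6) is shown because Agtrap and Agtr2 were the genes with separate groups, and Ace and Agtr2 those that rose together in control 2. Each is cut where the gene body of the deposited table begins, runs 5′ to 3′ on the gene's own strand, and has matches to the motifs searched in capitals. The Agtrap stretch is chr4:148088065-148088314 (minus strand), the Agtr2 stretch is chrX:21484374-21484543 (plus strand) and the Ace stretch is chr11:105967698-105967944 (plus strand).
Agtrap: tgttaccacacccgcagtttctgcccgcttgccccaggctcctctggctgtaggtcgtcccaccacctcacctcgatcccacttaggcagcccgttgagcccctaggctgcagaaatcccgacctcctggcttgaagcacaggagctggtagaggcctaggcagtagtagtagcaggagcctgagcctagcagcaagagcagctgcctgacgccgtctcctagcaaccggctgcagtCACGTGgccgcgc
Agtr2: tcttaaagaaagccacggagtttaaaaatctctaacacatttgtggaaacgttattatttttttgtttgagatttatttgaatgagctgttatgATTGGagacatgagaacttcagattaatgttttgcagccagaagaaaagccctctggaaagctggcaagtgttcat
Ace: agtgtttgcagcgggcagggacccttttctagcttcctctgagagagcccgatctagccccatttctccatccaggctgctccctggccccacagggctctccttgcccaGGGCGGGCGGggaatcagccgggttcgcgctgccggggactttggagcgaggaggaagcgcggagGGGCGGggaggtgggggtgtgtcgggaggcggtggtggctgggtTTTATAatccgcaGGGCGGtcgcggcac
The capitals mark an E-box (CACGTG) in Agtrap, a CCAAT box (as ATTGG on the reverse strand) in Agtr2, and GC boxes (GGGCGG) with 1 TATA box (TATAAA, on the reverse strand) in Ace. Both strands were searched for these motifs, for AGATAA, bound by GATA factors, and for TGANTCA, bound by AP-1, in the 250 bases before the RefSeq start of 8 of the 9 genes, Agtr1a having no entry. The E-box was in 1 of the 8 windows and in 6.04% of 27025 promoters, the GC box in 1 of 8 and 33% of promoters, and the TATA box in 2 of 8 (Ace and Agt) and 13% of promoters. The CCAAT box was in 4 of 8 (Agtr2, Edn1, Ece1 and Ednrb) and 34.5% of promoters. AGATAA and TGANTCA were in none of the 8, against 10.2% and 6.85% of promoters. G and C made up 62.8% of the Agtrap window, 67.2% of the Ace window and 38.4% of the Agtr2 window, where the median over promoters was 52%. The adjacent GC boxes of Ace share bases, and no 2 different motifs overlapped in these stretches.

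Agt, the angiotensinogen gene, was low in all hearts and varied within both groups. It stood at 1.85, 3.93 and 1.18 FPKM in controls 1 to 3 and at 3.33, 2.64 and 1.68 FPKM in STZ 1 to 3. The STZ values lay inside the control range, with control 2 the highest and control 3 the lowest. The log2 fold change was 0.16 (SE 0.321, 95% interval -0.61 to 0.92; limma, BH-adjusted p = 0.937). Without control 2 it was 0.48, without control 3 it turned to -0.11, and without STZ 1 it was -0.0014, so its direction rested on single libraries. Only 39 to 159 reads per library lay behind the Agt values. The liver markers were near 0, as given above, with Alb at 0.024 FPKM or less in every library.

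Agtr1a, the main type 1 receptor of rodents, was the most abundant gene of the angiotensin arm by mean FPKM and in every library except control 2. There Ace (19.3 FPKM), Agtrap (7.30 FPKM) and Agtr2 (5.51 FPKM) were above it. Control hearts were at 14.4, 5.42 and 13.9 FPKM and STZ hearts at 13.1, 11.6 and 11.9 FPKM. Control 2 was the lowest library, 2.61-fold below the mean of controls 1 and 3, and all 3 STZ hearts lay between it and those controls. The log2 fold change was 0.21 with all libraries (SE 0.330; limma, BH-adjusted p = 0.925) and turned to -0.20 without control 2 (SE 0.0859, unadjusted p = 0.0558, BH-adjusted p = 0.9999). In that fit the 3 STZ values were all below the remaining 2 control values. That was so for Agtrap and Agtr2 as well, 3 of the 9 genes, where 17.7% of genes tested had separate groups with control 2 left out, 8.55% with STZ lower. With array weights, which gave control 2 a weight of 0.146, the Agtr1a value was -0.17. In control 2 the 10 cardiomyocyte markers were lowest, and their part in its Agtr1a level was not tested. Agtr1b, the other type 1 gene, had 11 reads over all 6 libraries. The 2 genes are close copies, and how the counting treated reads that match both is unknown, so the Agtr1a level is uncertain to that extent.

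Of the endothelin arm, no gene had separate groups. Edn1, the endothelin-1 precursor gene, was at 3.64, 5.31 and 4.22 FPKM in controls against 4.99, 4.51 and 4.08 FPKM in STZ hearts. The highest and the lowest values of Edn1 both belonged to control hearts. Its log2 fold change was 0.045 (SE 0.141, 95% interval -0.29 to 0.38), and it turned to -0.057 without control 1 and to -0.015 without STZ 1. Its values rest on 131 to 243 reads per library, and the control 1 interval (exact Poisson, 95%) ran from 3.04 to 4.32 FPKM.

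Ece1, the converting enzyme, was the most abundant of the 9 genes in every library. Control hearts were at 24.0, 27.9 and 23.8 FPKM and STZ hearts at 23.2, 23.5 and 25.3 FPKM. The log2 fold change was -0.069 (SE 0.112, 95% interval -0.33 to 0.20) and became 0.0032 without control 2, the library with the highest Ece1 value. Ece1 had 2092 to 3166 reads per library, more than any other of the 9.

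Ednra, the type A receptor, was at 13.5, 10.4 and 12.4 FPKM in controls against 13.3, 16.9 and 11.8 FPKM in STZ hearts. STZ 2 was the highest and control 2 the lowest, and the rest lay close together. Control 2 held 1214 Ednra reads, against 1190 in control 3 and 1200 in STZ 3, so its lowest place rests on the authors' scale. Ednra had a log2 fold change of 0.19 (SE 0.161, 95% interval -0.19 to 0.57; limma, BH-adjusted p = 0.922). The value was 0.091 without control 2 and 0.055 to 0.30 over all fits without 1 library, the sign being positive in each. The gene 4933431K23Rik lies on the opposite strand over 61434 bases of Ednra and was at 0.71 to 1.74 FPKM. The strand setting is not given, so reads of this pair cannot be told apart.

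Ednrb, the type B receptor, was at 10.8, 11.3 and 11.6 FPKM in controls against 9.74, 12.1 and 12.9 FPKM in STZ hearts. The control values lay inside the STZ range. Ednrb had the smallest log2 fold change of the 8, 0.030 (SE 0.123, 95% interval -0.26 to 0.32; limma, BH-adjusted p = 0.970), which turned to -0.0023 without STZ 2 and -0.046 without STZ 3. The endothelial markers summed to 305 FPKM in control 2 against 397 to 457 FPKM in the other 5 libraries. Only 6 of these 10 markers were lowest in control 2. Cdh5 (52.6 FPKM against 105 to 132 FPKM) and Kdr (14.3 FPKM against 36.0 to 43.8 FPKM) were far lower there. Pecam1 (41.4 FPKM against 40.5 to 49.5 FPKM) lay within the range of the others. Ednrb in control 2 was 1.004 times the mean of controls 1 and 3 on the authors' scale, with 1027 reads against 776 and 868. The part of endothelial cells in the Ednrb values was not tested.

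**Figure D3:**
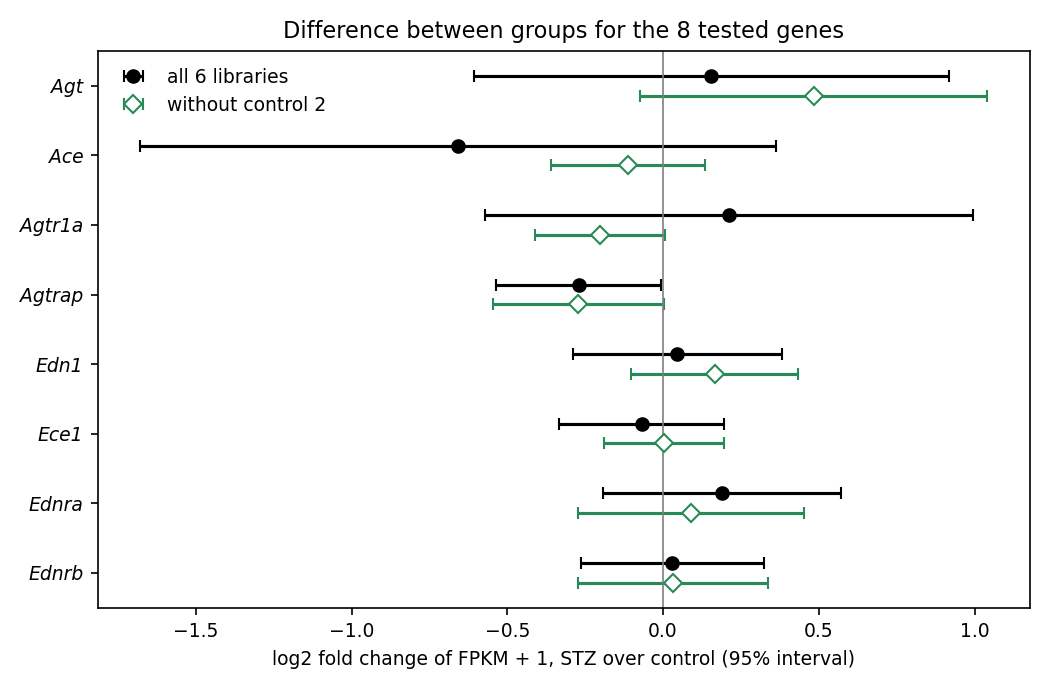
Log2 fold change of FPKM + 1, STZ over control (horizontal axis), with 95% intervals from limma for the 8 tested genes, from all 6 libraries (black circles) and without control 2 (green diamonds). The Agtrap estimate is -0.27 in both fits, while Ace moves from -0.66 to -0.11 and Agtr1a from 0.21 to -0.20.

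Ranked by mean FPKM over the 6 libraries, which is per length and so comparable between genes, the order was Ece1 (24.6), Ednra (13.1), Agtr1a (11.7), Ednrb (11.4), Ace (7.61), Agtrap (6.61), Edn1 (4.46), Agt (2.44) and Agtr2 (1.52). The ranges of neighbours were separate only between Ece1 and Ednra and between Agtrap and Edn1, each pair in the same order in 6 of 6 libraries. Ednra, Agtr1a and Ednrb did not differ beyond their spread, and Ednra exceeded Agtr1a in 3 of 6 libraries. Ace exceeded Agtrap in 1 of 6 libraries, control 2. With that library left out the order was the same except that Agtrap (6.47) came before Ace (5.26). Neighbours with separate ranges were then Ece1 and Ednra, Ednrb and Agtrap, and Edn1 and Agt. The ranges of Ace (4.77 to 6.02) and Edn1 (3.64 to 4.99), neighbours in that order, overlapped.

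Pairs of the genes were also compared within each library. On log2(FPKM + 1), Ednra minus Ednrb was 0.30, -0.11 and 0.088 in controls 1 to 3 and 0.41, 0.46 and -0.11 in STZ 1 to 3. The groups overlapped, and the difference of 0.16 had an exact two-sided permutation p of 0.6. Agtr1a minus Agtr2 was 3.18, -0.020 and 2.65 in control and 3.23, 2.95 and 3.21 in STZ hearts. Control 2 alone had about as much Agtr2 as Agtr1a, at a linear ratio of 0.984 against 10.1 to 30.5 in the other 5 libraries. The difference of 1.19 (exact permutation p = 0.2) was 0.21 without control 2. Because Agtr2 is low, it also depended on the pseudocount, and was 1.88 with 0.1 in place of 1 (exact permutation p = 0.2). Agtrap minus Agtr1a was -0.76, 0.37 and -0.98 in control and -1.03, -0.97 and -0.81 in STZ hearts, a difference of -0.48 (exact permutation p = 0.3) that was -0.071 without control 2.

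Other genes of both pathways showed which steps were present at all. Renin itself (Ren1) was listed at 0 in 5 libraries, and all 15 of its reads lay in control 2. The prorenin receptor gene Atp6ap2 was at 12.2 to 14.9 FPKM, and Ctsd, a protease with a broad range of substrates, at 105 to 117 FPKM. Mas1, the receptor gene for angiotensin 1-7, was at 0.41 FPKM or less. Cma1, the mast cell chymase that also makes angiotensin II, was at 1.20, 8.49 and 3.40 FPKM in controls against 5.47, 6.55 and 5.04 FPKM in STZ hearts, with the lowest and the highest value both in the control group. Its log2 fold change was 0.56 (SE 0.479; limma, BH-adjusted p = 0.922) and 1.10 without control 2 (unadjusted p = 0.00790, BH-adjusted p = 0.972). The summed mast cell markers, a list that holds Cma1, were at 8.21, 26.4 and 14.4 FPKM in controls against 16.5 to 20.8 FPKM in STZ hearts, and their part in the Cma1 values was not tested.

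The aminopeptidases that trim angiotensin peptides were present. Anpep (aminopeptidase N) was at 7.33, 8.13 and 6.18 FPKM in controls against at 5.70, 5.63 and 4.89 FPKM in STZ hearts. All 3 STZ values were below all control values, with a log2 fold change of -0.35 (SE 0.123, unadjusted p = 0.0245; limma, BH-adjusted p = 0.922). Without control 2 it was -0.27. As for Agtrap, the part of the lower fibroblast markers was not tested. Enpep (aminopeptidase A) was at 3.86 ± 1.61 and 3.83 ± 0.383 FPKM, and Lnpep, the angiotensin IV receptor, at 15.2 ± 4.02 and 17.9 ± 2.73 FPKM. The list held 20 further angiotensin genes, of which 19 were in the table and 12 were tested. The log2 fold change was above 0 for 9 and below 0 for 3 (median 0.054), and 0 passed limma's BH-adjusted threshold. At an unadjusted p under 0.05 there was 1, Anpep, where 2.59% of all genes tested were. Without control 2 there were 3 (Anpep, Enpep and Cma1), where 3.93% of all genes tested were, again with 0 past the threshold.

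On the endothelin side Edn2 and Edn3, the other ligand genes, were at 0.14 FPKM or less, and Ece2 at 0.20 FPKM or less. The proprotein convertase genes Furin (13.5 to 14.8 FPKM), Pcsk6 (9.35 to 20.8 FPKM) and Pcsk7 (5.94 to 6.75 FPKM) were all present. Of the 4 tested genes of this list of 10, 3 had a log2 fold change above 0 and 1 below 0 (median 0.060), and 0 passed limma's BH-adjusted threshold or had an unadjusted p under 0.05. Edn1 was the ligand gene with the highest level, 3.64 to 5.31 FPKM.

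Of the aldosterone and kinin genes, the synthases Cyp11b1 and Cyp11b2 and the kallikrein Klk1 had no read in any library. The mineralocorticoid receptor gene Nr3c2 was at 2.18 ± 0.696 FPKM in controls against 2.76 ± 0.213 FPKM in STZ hearts, and the kinase Sgk1, one of its targets, at 8.74 ± 3.17 and 10.6 ± 2.02 FPKM. Neither of these 2 passed limma (BH-adjusted p = 0.922 for both), and their log2 fold changes of 0.27 and 0.30 were 0.072 and 0.024 without control 2.

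**Figure D4:**
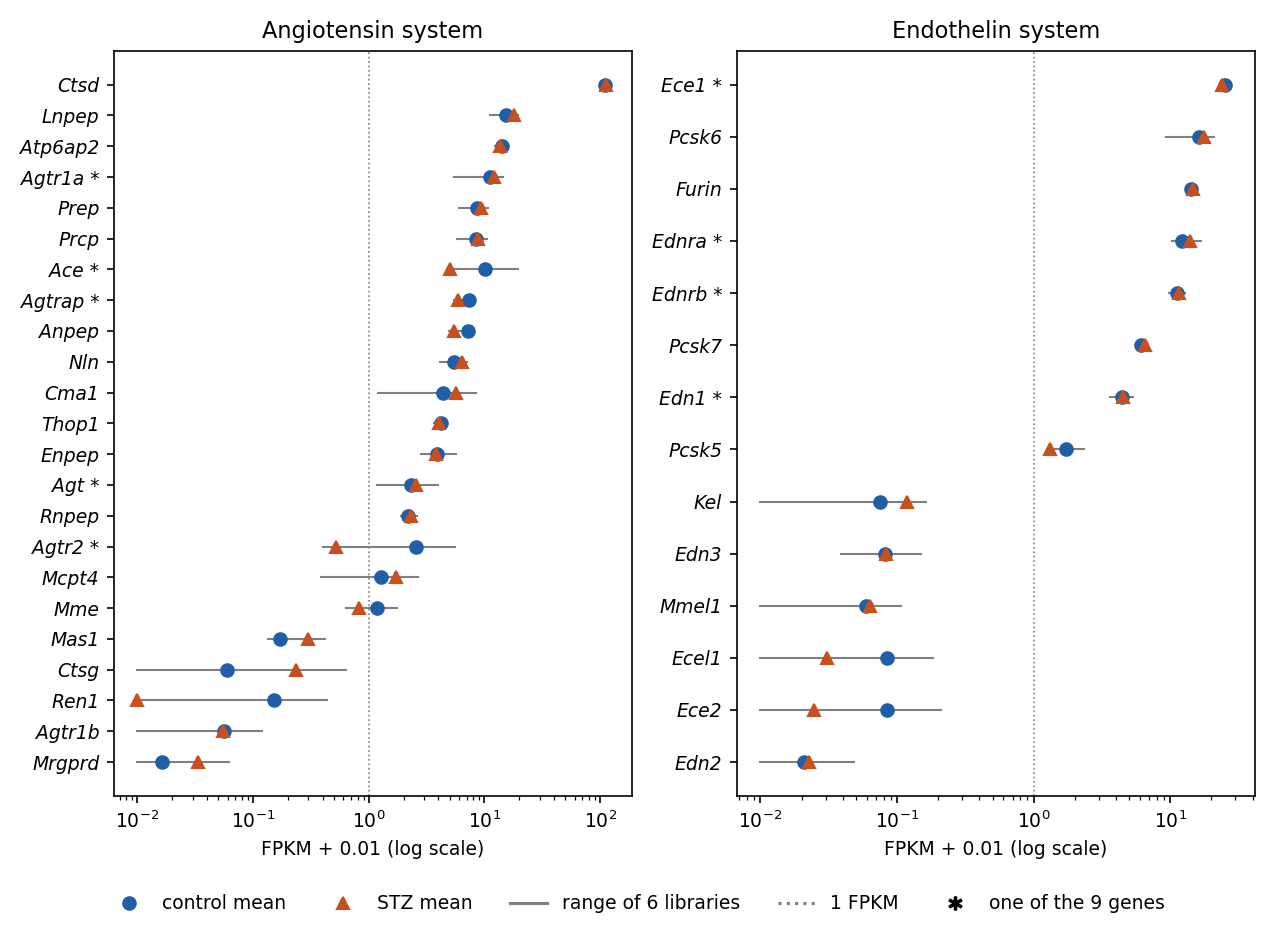
FPKM plus 0.01 on a log axis for genes of the angiotensin (left) and endothelin (right) systems, with control means as blue circles, STZ means as orange triangles, the range over 6 libraries as a grey line and the 9 genes marked with an asterisk. Renin (Ren1), Mas1, Edn2, Edn3 and Ece2 lie below the dotted line at 1 FPKM in every library, and Ece1 heads the endothelin genes.

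Downstream of the receptors, Gq proteins activate phospholipase C and protein kinase C. Of 31 tested signalling genes in a list of 35, 19 had a log2 fold change above 0 and 12 below 0 (median 0.047), and 0 passed limma's BH-adjusted threshold or had an unadjusted p under 0.05. The lowest p values were those of Prkca (protein kinase C alpha, 3.96 ± 1.09 and 5.92 ± 1.34 FPKM, log2 fold change 0.49), Nfatc2 (a calcineurin-dependent transcription factor, 1.76 ± 0.563 and 2.52 ± 0.245 FPKM, 0.37) and Gnaq (the alpha subunit of Gq, 9.82 ± 0.971 and 10.9 ± 0.616 FPKM, 0.14). Without control 2 these were 0.29, 0.20 and 0.086. Among 14 tested genes of 20 that angiotensin II or endothelin-1 is known to induce, 9 were positive and 5 negative (median 0.034). Among those of lowest p were Ccl2, a monocyte chemokine (log2 fold change -0.35), and Rcan1, a calcineurin target (0.31). Without control 2 they were at -0.20 and 0.032. Ctgf, a matrix-associated growth factor gene, was at 12.1, 32.1 and 49.2 FPKM in controls against 46.5, 50.0 and 21.7 FPKM in STZ hearts, so the spread within both groups was wide.

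Of 10 tested transcription factors known to act on Edn1, Agt or Ace, 7 were positive and 3 negative (median 0.075), led by Gata4, the cardiac GATA factor, at 50.6 ± 8.54 and 59.0 ± 1.33 FPKM. The Gata4 log2 fold change of 0.23 was 0.091 without control 2, whose 41.0 FPKM was the lowest value. Jun (log2 fold change 0.30) and Klf4 (0.19) came next by p. Neither this list nor the induced genes had a member past limma's BH-adjusted threshold, or at an unadjusted p under 0.05. Over all 6 other lists, 73 genes were tested and 0 passed limma's BH-adjusted threshold. They had 1 gene at an unadjusted p under 0.05, Anpep, where 2.59% of all genes tested had one. Without control 2 there were 4 (Anpep, Enpep, Cma1 and the signalling gene Prkcd, a protein kinase C isoform), where 3.93% of all genes tested had one, and 0 passed the adjusted threshold. The Prkcd log2 fold change was -0.0076 with all libraries and 0.25 without control 2 (limma, BH-adjusted p = 0.9999). Groups were separate for 4 of the 73, Anpep and Nfatc3 with STZ lower and Nfatc2 and Gata4 with STZ higher, where the share over all genes tested was 8.54%.

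Profiles over the 6 libraries were compared with those of 152 other tested genes of the pathway and marker lists, by the root mean square difference of log2(FPKM + 1) centred on each gene's mean. Nearest to Agtr1a were the cardiomyocyte genes Actc1 (0.14 log2 units) and Myl3 (0.15) and the hypoxia factor gene Hif1a (0.16). Nearest to Ace were Cidea (0.070), a lipid droplet gene of the brown fat list, the fibroblast gene Dpt (0.15) and the endocardial gene Npr3 (0.17). Both sets share the level of control 2, which was low for the first and high for the second. Nearest to Agt were Enpep (0.23), Vwf (0.24) and Prkcd (0.25), and nearest to Agtrap were Arrb1 (0.14), Pdgfra (0.14) and Anpep (0.14). Ednra lay nearest to Nr4a1 (0.064), Cldn5 (0.11) and Kcnj8 (0.11). Edn1, Ece1 and Ednrb varied little and had nearest neighbours at 0.061 to 0.11, led by the receptor signalling genes Plcb3 for Edn1, Rgs3 for Ece1 and Nfatc1 for Ednrb. All points share the 6 libraries, and 1 library sets much of these distances.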

How the data were processed

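Heart RNA of 6 mice at day 4 was sequenced from SMARTER mRNA-seq libraries, per the labels' protocols. The authors deposited FPKM-type values per gene, on GRCm38 (mm10) per the submitters' processing notes. The unit was read from the table's abbreviation and from the values, and whether reads or fragments were counted is unknown. Which aligner and counter were used, and with which strand setting, is not given in the sources used here. Multiplied by gene length, the values of a library were whole multiples of a common step (100% within 0.01 reads), from which read totals were obtained. Groups were compared on log2(FPKM + 1) with limma (version 3.58.1, R 4.3.3, trend of variance with level) for the 12431 genes that reached 1 FPKM in at least 3 libraries, two-sided, with group as the only term and BH adjustment over all genes tested. Fold changes on this scale understate those of low genes. Exact permutation tests used all 20 assignments. The fit was tested on simulated data. The 9 genes are named whatever their values. Of 3 other pathway lists (angiotensin, endothelin, aldosterone and kinin) genes were named by level, and of 3 (signalling, induced genes, transcription factors) the 3 of lowest p, apart from items not reported here. For each tested gene the 3 nearest profiles were named. Ctgf, Nfatc3, Prkcb, Spp1, the fold changes of Prkcd and the angiotensin, endothelin, aldosterone and kinin genes under 1 FPKM were named after their values were seen. The genes and lists were chosen with earlier results of these data known. Promoter sequences are from RefSeq (GRCm38.p6). Python 3.11.15 with matplotlib 3.10.9 drew the figures.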

Additional observations from a re-analysis of the deposited data

How the results depend on the processing

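The count of the 9 genes past the threshold was 0 under every alternative that was run, and 0 to 1 of them had an unadjusted p under 0.05. The alternatives changed the pseudocount, the filter, the scaling, the weights, the test (voom on recovered reads, chosen after seeing the data) and the libraries. Of 118 values of single genes, 105 kept their direction and 13 reversed. Agtrap, Ace, Agtr2 and Ednra kept theirs in all. With array weights Agtr1a was -0.17. Scaled by recovered reads, Edn1 was -0.014 and Ednrb -0.033, and with voom they were -0.015 and -0.036. Over fits without 1 library the range was -0.11 to 0.48 for Agt, -0.20 to 0.43 for Agtr1a, -0.057 to 0.17 for Edn1, -0.11 to 0.0032 for Ece1 and -0.046 to 0.14 for Ednrb. The cause of these reversals was not tested. The adjusted p of Agtrap ran from 0.690 to 0.9999 over its alternatives. With the replicate number as a block, the count over all genes was 0 (373 at an unadjusted limma p under 0.05) and the fold changes of the 8 genes were as without it (Agtrap -0.27). Same-numbered libraries deviated together by a correlation of -0.041 to 0.092, so the numbers were not taken to pair them, and the block changed no call among the 9 genes. Over all genes, the count of 3 became 8 with array weights, 1 with voom, and 2 to 5 without 1 library (5 without control 3). No other pathway gene passed under any alternative run. DESeq2 and edgeR were planned on the recovered reads and were not run. The deposited values are FPKM, and voom was the only count method run on the reads recovered from them. A filter at a mean of 5 FPKM leaves no value for Agt, Agtr2 and Edn1. Depth limits Agtr2 and Agt, with as few as 24 and 39 reads in a library.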

Other observations

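Below the limit of the main test, 3 further pathway genes had groups that did not overlap, and they were named after their values were seen. Of the 100 other pathway genes above 0 in any library, 73 had been tested, and these 3 were among the rest. Prkcb, protein kinase C beta, was at 0.34, 1.77 and 0.45 FPKM in controls against 0.26, 0.31 and 0.34 FPKM in STZ hearts, control 2 being the highest. Spp1, encoding osteopontin, was at 0.40, 0.54 and 0.45 FPKM in controls against 0.14, 0.22 and 0.20 FPKM in STZ hearts, on 59 reads over the 6 libraries. Mas1 was at 0.18, 0.12 and 0.17 FPKM in controls against 0.26, 0.41 and 0.21 FPKM in STZ hearts, on 63 reads. Among all 27486 genes above 0 in any library, tested ones included, 7.13% had groups that did not overlap. With no filter on low values, none of the 3 passed the adjusted threshold of limma.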
